A study of Orbicella faveolata with 18 samples.

Results

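Clones AOSF573, annotated as calmodulin, and AOSC448, annotated as calreticulin, are the 2 calcium-binding clones described here, of 1218 clones in a table of gene expression in coral embryos. They were chosen by clone identifier and annotation, and both had a value on all 18 arrays. The annotations rest on sequence similarity, and a spotted cDNA does not separate transcripts of near-identical members of a gene family. Embryos of the reef coral *Montastraea faveolata*, named Orbicella faveolata in the labels, were raised at 27.5, 29 or 31.5°C and collected 48 or 12 hours after fertilization, which gives 6 conditions. All embryos lacked algal symbionts, came from the mixed spawn of several colonies, and were fertilized at a common temperature between the 2 warmer ones before they were moved. Each condition was 1 RNA isolation of pooled whole embryos, hybridized on 3 technical arrays. On all arrays the embryo RNA was labelled with Cy5 and hybridized against a common Cy3 pool, with no exchange of dyes. A log2 ratio of 0 thus means the same signal as this reference, which cancels between conditions. A comparison of 2 temperatures at 1 time is therefore a comparison of 2 RNA samples, and the SDs over arrays are technical. In whole embryos, fewer cells of a type and less RNA per cell cannot be told apart.

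Calmodulin is a small protein of the cytosol and nucleus that binds calcium through EF-hands. Loaded with calcium it attaches to and regulates kinases, phosphatases, channels and motor proteins, which makes it a general reader of calcium signals. Calreticulin is a chaperone of the endoplasmic reticulum (ER) that stores calcium in the ER lumen and holds newly made glycoproteins until they fold. Both are abundant and strongly conserved among animals, and calcium signals run through animal development from fertilization onward.

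After 48 hours both clones were lower at the 2 warmer temperatures than at 27.5°C, and calmodulin was the more strongly lowered at 31.5°C. Calmodulin measured -0.17, -0.12 and -0.20 on the log2 scale on the 3 arrays of 27.5°C, and -0.99, -0.53 and -0.60 on those of 29°C. On the arrays of 31.5°C it measured -1.41, -1.38 and -1.30. The values of the 3 temperatures did not overlap, and they were ordered from the coolest to the warmest. Calreticulin measured -0.11, -0.01 and -0.0020 on the arrays of 27.5°C, -0.77, -0.37 and -0.37 on those of 29°C, and -0.89, -0.73 and -0.57 on those of 31.5°C. Its arrays at both warmer temperatures lay below all arrays of 27.5°C, whereas those of 31.5°C and 29°C overlapped. Arrays that do not overlap were common among the 918 clones with a value on every array. In either direction, this held for 247 clones between 29 and 27.5°C. It held for 632 between 31.5 and 27.5°C and for 452 between 31.5 and 29°C. For both clones the lowest array of 29°C was replicate 1, and that array also correlated less with its 2 companions over all clones (r = 0.591 and 0.689) than these did with each other (r = 0.853).

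**Figure D1:**
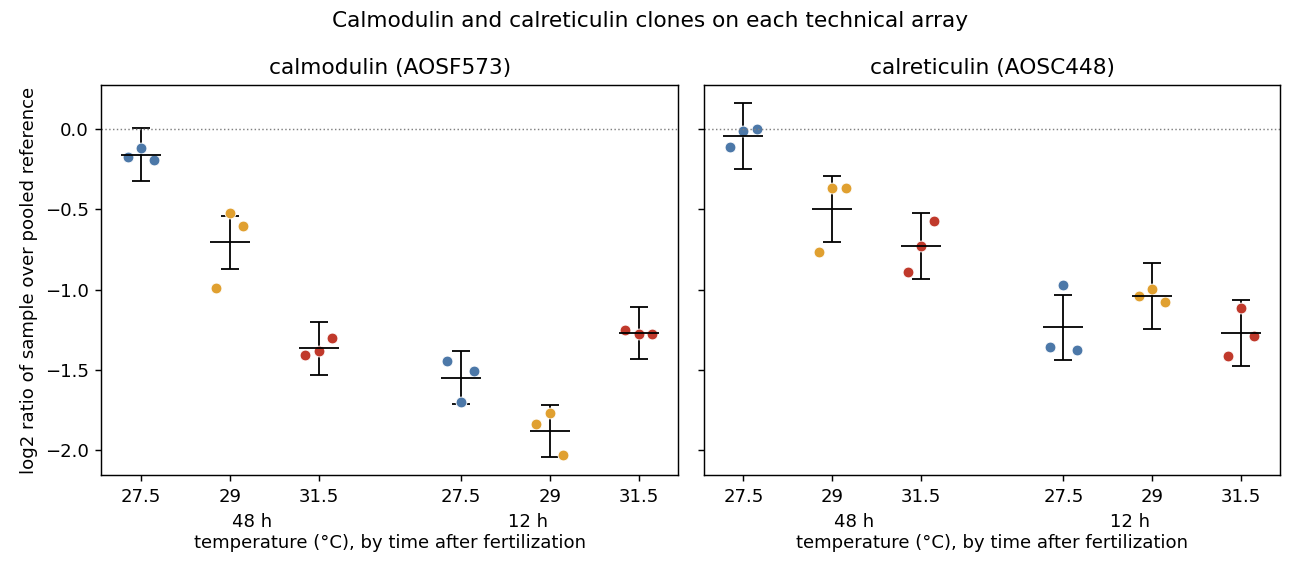
Log2 ratio of embryo RNA over the pooled reference (vertical axis) for calmodulin (left panel) and calreticulin (right panel) on each technical array, by temperature (°C) and time after fertilization. Points are arrays (3 per condition), horizontal bars are means and error bars are 95% intervals from 1 pooled spread per clone. At 48 h the calmodulin means step down from -0.16 at 27.5°C to -0.71 at 29°C and -1.36 at 31.5°C, and calreticulin steps from -0.04 to -0.50 and -0.73.

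Condition means were called different when their 95% intervals did not overlap. The intervals came from the spread of the arrays of all 6 conditions, so that a difference had to exceed a limit of 0.33 for calmodulin and 0.41 for calreticulin. At 48 hours calmodulin averaged -0.71 ± 0.25 at 29°C and -0.16 ± 0.04 at 27.5°C (SD, n = 3 technical arrays each), a difference of -0.54 that passed the limit. At 31.5°C it averaged -1.36 ± 0.06, a difference of -1.20 from 27.5°C, where its signal was 43.5% of that at 27.5°C, and of -0.66 from 29°C. Both differences passed the limit as well. Calreticulin averaged -0.50 ± 0.23 at 29°C and -0.04 ± 0.06 at 27.5°C, a difference of -0.46 past its limit. At 31.5°C it averaged -0.73 ± 0.16, a difference of -0.69 from 27.5°C, or 62.1% of the signal there. Between 31.5 and 29°C calreticulin differed by -0.23, within the limit. Each condition is 1 RNA sample, so these comparisons have no p-value that covers differences between cultures.

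Both clones were thus called lower at 29°C than at 27.5°C after 48 hours, as were 57 of the 1099 clones with enough arrays to be tested (5.19%). Both were called lower at 31.5°C than at 27.5°C, as were 161 clones (14.6%). Of the 2, calmodulin was called lower at 31.5°C than at 29°C, as were 121 clones (11%). Among the 1099 changes at 31.5°C, ordered from the most negative, calmodulin stood at place 11 and calreticulin at place 75, and at 29°C they stood at places 24 and 39. The median change of all tested clones was -0.01 at 31.5°C and -0.0038 at 29°C. Being lower at both warmer temperatures was shared by 36 clones, and 16 clones, calmodulin among them, were lower in all 3 pairs of temperatures. The comparisons of 29°C and 31.5°C share the arrays of 27.5°C. The study listed both clones as changed after 48 hours on these same samples, so their calls at this time point are not independent evidence. For calreticulin at 29°C the call was lost when replicate 1 of 29°C was left out (-0.32), as it was for replicate 2 or 3 of 27.5°C, while calmodulin kept its call without each of these arrays (-0.40 without replicate 1 of 29°C). With a spread from the 2 compared conditions in place of all 6, the differences between 29 and 27.5°C were within the limits of both clones (0.57 for calmodulin and 0.54 for calreticulin).

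At 12 hours 2 of the 6 differences between temperatures passed the limit, both of them for calmodulin, against 5 of 6 at 48 hours. Of the 1099 tested clones, 29 were called higher and 57 lower between 29 and 27.5°C at 48 hours, and 75 and 122 at 12 hours. Between 31.5 and 27.5°C, 95 were higher and 161 lower at 48 hours, and 82 and 102 at 12 hours. Calmodulin at 12 hours measured -1.44, -1.70 and -1.50 on the arrays of 27.5°C, -1.84, -1.77 and -2.03 on those of 29°C, and -1.25, -1.28 and -1.28 on those of 31.5°C. The 3 temperatures did not overlap at this time point either, but the order was another one, with the highest values at 31.5°C and the lowest at 29°C. Calreticulin measured -1.36, -0.97 and -1.38 at 27.5°C, -1.04, -0.998 and -1.08 at 29°C, and -1.41, -1.11 and -1.29 at 31.5°C. Its arrays of each warmer temperature overlapped those of 27.5°C, whereas all arrays of 31.5°C lay below those of 29°C, with a smallest gap of 0.04. Of the 918 clones on every array, 293 had no overlap between 29 and 27.5°C at 12 hours, in either direction. Between 31.5 and 27.5°C it was 217 clones, and between 31.5 and 29°C 410.

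Calmodulin averaged -1.88 ± 0.14 at 29°C and -1.55 ± 0.13 at 27.5°C, a difference of -0.33 that passed its limit only before rounding. It lost this call when any 1 of 14 of the 18 arrays was left out, and also without replicates 1 and 2 of 27.5°C, the 2 arrays whose file headers name another user of the image-analysis program (-0.38, limit 0.457). At 31.5°C it averaged -1.27 ± 0.01, which was 0.28 above 27.5°C and within the limit, but 0.61 above 29°C and past it. Calreticulin averaged -1.24 ± 0.23 at 27.5°C, -1.04 ± 0.04 at 29°C and -1.27 ± 0.15 at 31.5°C. Its differences were 0.20 for 29°C against 27.5°C, -0.03 for 31.5°C against 27.5°C and -0.23 for 31.5°C against 29°C, all within the limit. Over the tested clones, 17.9% were called in either direction between 29 and 27.5°C at 12 hours, 16.7% between 31.5 and 27.5°C, and 17% between 31.5 and 29°C. Calmodulin was called between 29 and 27.5°C and between 31.5 and 29°C, and calreticulin in none of the 3 comparisons. Calmodulin's largest change at this time point, 31.5°C against 29°C, stood at place 79 from the highest of 1099. When the arrays were scaled to the same median absolute deviation, this difference was 0.23 and within the limit, and that between 31.5 and 27.5°C, 0.28 without scaling, was -0.085.

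**Figure D2:**
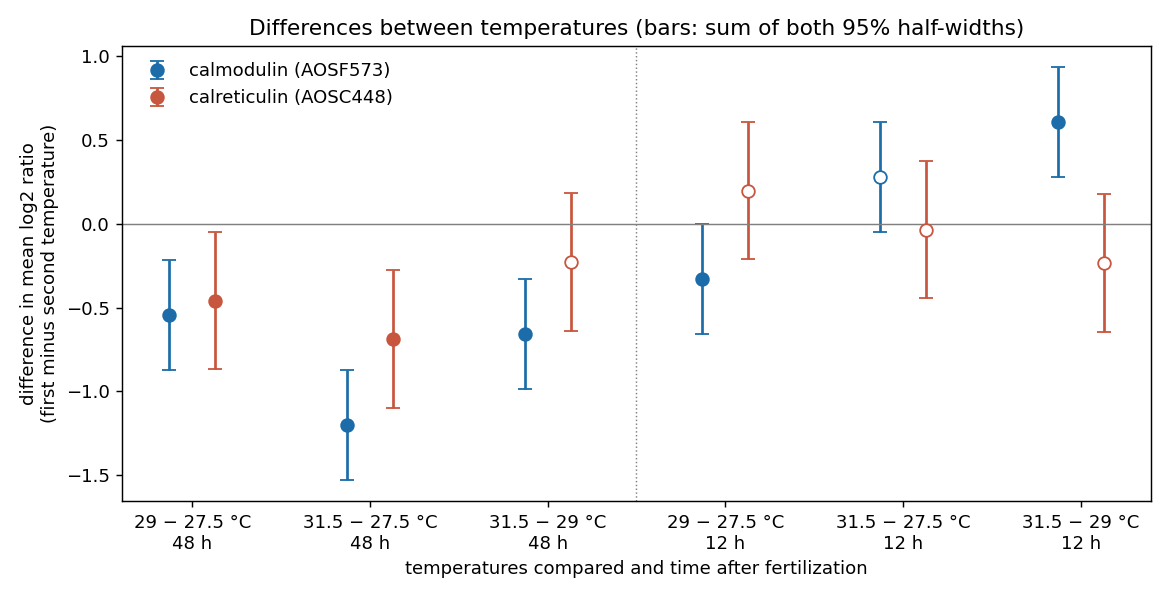
Difference in mean log2 ratio (vertical axis, first minus second temperature) for each pair of temperatures at 48 h (left of the dotted line) and 12 h (right), with calmodulin in blue and calreticulin in red. Error bars show the limit (0.33 and 0.41), filled points passed it and open points did not. Of the 6 differences at 48 h 5 passed the limit, all of them below 0, and at 12 h calmodulin passed it with -0.33 and 0.61.

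Both transcripts were higher at 48 than at 12 hours in the RNA samples of 27.5°C, 1 for each time. Calmodulin averaged -0.16 ± 0.04 at 48 hours and -1.55 ± 0.13 at 12 hours, a difference of 1.39, or 2.62-fold. Calreticulin averaged -0.04 ± 0.06 at 48 hours and -1.24 ± 0.23 at 12 hours, a difference of 1.19, or 2.29-fold. At 29°C calmodulin was 1.17 higher at 48 than at 12 hours (2.26-fold) and calreticulin 0.54 (1.45-fold), and both passed the limit. At 31.5°C calreticulin was again 0.54 higher at 48 hours (1.46-fold). Calmodulin, by contrast, averaged -1.36 ± 0.06 at 48 hours and -1.27 ± 0.01 at 12 hours at 31.5°C, and this difference of -0.09 was within the limit. On the 3 arrays of 31.5°C at each time it had between 37.7 and 40.6% of the reference signal at 48 hours and between 41.2 and 41.9% at 12 hours.

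A higher value at 48 hours was called for both clones at 27.5°C, where 24.7% of the tested clones were called higher, and for both at 29°C, where 26.2% were. At 31.5°C it was called for calreticulin and not for calmodulin, against 20.7% of the tested clones. A rise by this criterion at all 3 temperatures was shared by 141 clones, among them calreticulin. Over all clones, the log2 ratios on the arrays of 27.5°C had SDs of 0.66 to 0.69 at 12 hours. At 48 hours these SDs were 0.35 to 0.39. When the arrays were scaled to the same median absolute deviation, calreticulin's differences at 29 and 31.5°C were within the limit (0.25 and 0.36, limit 0.38), and those of calmodulin were 0.90 at 27.5°C and 0.65 at 29°C, both still past its limit of 0.40. At 27.5°C calmodulin stood at place 59 and calreticulin at place 82 from the highest of 1099 changes, and at 31.5°C they stood at places 662 and 197. The middle 90% of tested clones spanned -1.24 to 1.41 at 27.5°C and -1.21 to 1.13 at 31.5°C, so that both members' changes lay inside the range of most clones.

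**Figure D3:**
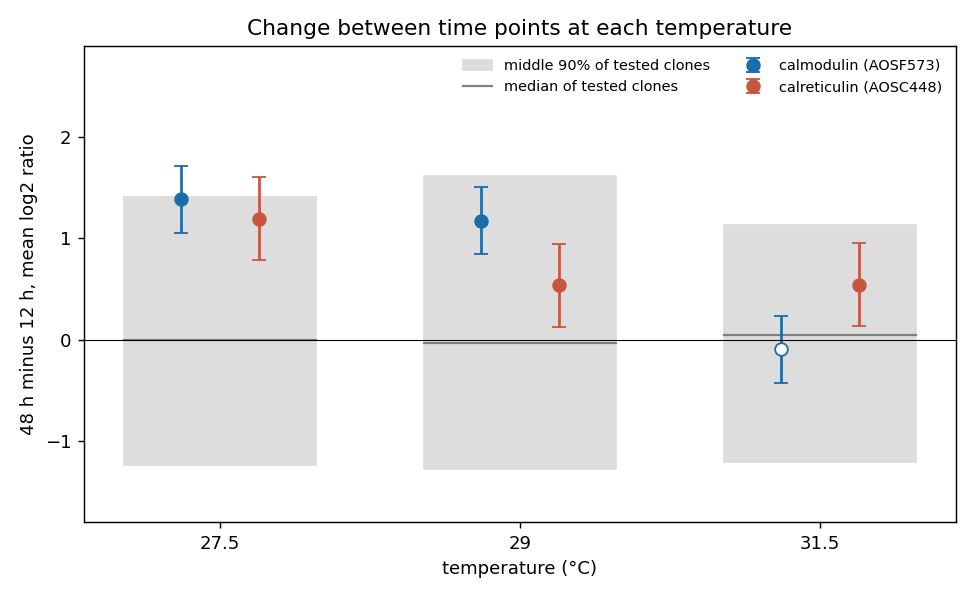
Change in mean log2 ratio, 48 h minus 12 h (vertical axis), at each temperature (°C, horizontal axis) for calmodulin (blue) and calreticulin (red). Error bars show the limit, filled points passed it, grey boxes span the middle 90% of the 1099 tested clones and grey lines their medians. Calmodulin stands at 1.39, 1.17 and -0.09 at 27.5, 29 and 31.5°C, and calreticulin at 1.19, 0.54 and 0.54.

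The change with time could also be tested with RNA samples as units, since each time point has 3 of them, 1 from each temperature. No condition has a replicate RNA sample. The residual is thus how far the time difference varied between temperatures, not a spread between like samples. In limma, with temperature as a further term, calmodulin was 0.82 higher at 48 than at 12 hours (SE 0.27, adjusted p = 0.0392) and calreticulin 0.76 (SE 0.19, adjusted p = 0.0142). The mean over the temperatures was -0.74 ± 0.60 at 48 hours and -1.57 ± 0.31 at 12 hours for calmodulin, and -0.42 ± 0.35 at 48 hours and -1.18 ± 0.13 at 12 hours for calreticulin (SD, n = 3 RNA samples each). In this test 228 of the 1099 clones were called higher at 48 hours (20.7%), and of the 36 clones that were lower at both warmer temperatures at 48 hours 13 were among them. The calls of both clones were lost without the RNA sample of 27.5°C at either time point, where both differences were 0.54 (adjusted p = 0.293 for calmodulin and 0.161 for calreticulin). The call of calmodulin was also lost without that of 29°C (0.65, adjusted p = 0.126). Without the RNA sample of 31.5°C at either time point the differences were larger, 1.28 for calmodulin and 0.87 for calreticulin. Both calls were lost when the arrays were scaled to the same median absolute deviation, with 0.39 for calmodulin (adjusted p = 0.260) and 0.47 for calreticulin (adjusted p = 0.0676).

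Averaged over both time points, no effect of temperature passed the same test, which has the same residual. Calmodulin differed by -0.44 for 29°C against 27.5°C (SE 0.33, adjusted p = 0.975) and by -0.46 for 31.5°C against 27.5°C (SE 0.33, adjusted p = 0.837). Calreticulin differed by -0.13 (SE 0.24, adjusted p = 0.975) and by -0.36 (SE 0.24, adjusted p = 0.837). In limma 0 of the 1099 clones (0%) were called for either temperature, while 33 clones at 29°C and 67 clones at 31.5°C had an unadjusted p below 0.05, neither member among them.

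The temperature change at 48 hours was then set against that at 12 hours in limma over the technical arrays, a test whose error is technical. It uses the samples in which the study had listed both clones as changed after 48 hours, so it is not independent evidence. Between 31.5 and 27.5°C calmodulin changed by -1.20 at 48 hours and by 0.28 at 12 hours, which differ by -1.48 (SE 0.17, adjusted p = 2.45e-05). This was place 9 from the most negative of 1099 clones. Calreticulin changed by -0.69 at 48 hours and by -0.03 at 12 hours, which differ by -0.65 (SE 0.20, adjusted p = 0.0254). A difference in this direction was called for 149 clones (13.6%). Between 29 and 27.5°C the changes differed by -0.21 for calmodulin (SE 0.17, adjusted p = 0.551) and by -0.66 for calreticulin (SE 0.20, adjusted p = 0.0836), where 10 clones (0.91%) were called. For calreticulin this was as large as the difference at 31.5°C, with the same SE. It stood at place 43 from the most negative, against place 145 at 31.5°C. The 2 adjusted p-values of calreticulin differ through the adjustment over all tested clones. The calreticulin call at 31.5°C was lost without replicate 2 of 31.5°C at 12 hours, replicate 1 of 31.5°C at 48 hours, or replicate 2 or 3 of 27.5°C at 48 hours, where the adjusted p reached 0.0740. With scaled arrays it was also lost (-0.46, adjusted p = 0.0687), while calmodulin remained called (-1.27, adjusted p = 0.000236).

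The 2 clones were also set against each other by the difference between their changes, which leaves their own levels out. The limit of 0.44 came from the spread of calmodulin minus calreticulin on the same array, pooled over the 6 conditions. At 48 hours the change of calmodulin at 31.5°C, relative to 27.5°C, differed from that of calreticulin by -0.51, past the limit. For 29°C against 27.5°C the difference was -0.08 and for 31.5°C against 29°C it was -0.43, both within it. At 12 hours the changes of the clones differed by -0.53 for 29°C against 27.5°C and by 0.84 for 31.5°C against 29°C, both past the limit, and by 0.31 for 31.5°C against 27.5°C, within it. With time, calmodulin's change differed from that of calreticulin by 0.19 at 27.5°C, within the limit, and by 0.64 at 29°C and -0.64 at 31.5°C, both past it. As a description, the 6 condition means of the clones correlated with r = 0.859, the 3 means at 48 hours with r = 0.970 and the 3 at 12 hours with r = -0.945. All of these values come from the same 18 arrays.

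Both clones stayed below the pooled reference in every condition, as did 40 of the 1218 clones in the table. Calmodulin averaged 48.7% of the reference signal over the 6 conditions and calreticulin 60.1%. Ordered by the mean log2 ratio over the conditions, calmodulin, at -1.16, was at place 2 from the lowest, and calreticulin, at -0.80, at place 11. Their highest condition was 27.5°C at 48 hours, with 89.4% of the reference signal for calmodulin and 97.1% for calreticulin. The lowest condition was 29°C at 12 hours for calmodulin, with 27.2%. For calreticulin it was 31.5°C at 12 hours, with 41.4%, which did not differ beyond the limit from 27.5°C at 12 hours, with 42.5%. By the labels the reference also held RNA of time points outside these conditions, while the methods give equal amounts of all samples, so its make-up is not settled. Without an exchange of dyes, a difference between the dyes cannot be separated from these levels.

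Likeness of profiles over the 6 condition means was measured by Euclidean distance, after each profile was centred on its own mean. Nearest to calmodulin were AOSF1387, 40S ribosomal protein S19 (distance 0.32, r = 0.974), CAON1901, 60S ribosomal protein L35a (0.32), AOSC391, the lipid-binding subunit of mitochondrial ATP synthase (0.32), CAON1748, the ubiquitin-like protein FUBI (0.33), and AOSF780, a myosin light chain (0.37). FUBI is made in animals as a fusion with a ribosomal protein of the small subunit. All 5 had their lowest value at 29°C and 12 hours, as calmodulin did, and their highest at 27.5°C and 48 hours. Calreticulin was at place 64 of the 1098 other clones in this order, at a distance of 0.72.

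Nearest to calreticulin were AOSF545, a predicted protein (distance 0.28, r = 0.973), CAOO2671, autophagy-related protein 16 (0.34), AOSF618 and CAON1459, for which the sources used here give no name (0.35 and 0.36), and AOSF1493, elongation factor-1 alpha (0.37), which brings aminoacyl-tRNA to the ribosome. Among annotated clones CAON1026, ribosomal protein S3a (0.42), and CAON533, ribosomal protein S16 (0.44), came next. Calmodulin was at place 122. Names came from the study's list of changed clones, so clones outside it remain without one. These distances were computed on the same arrays and carry no test.

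**Figure D4:**
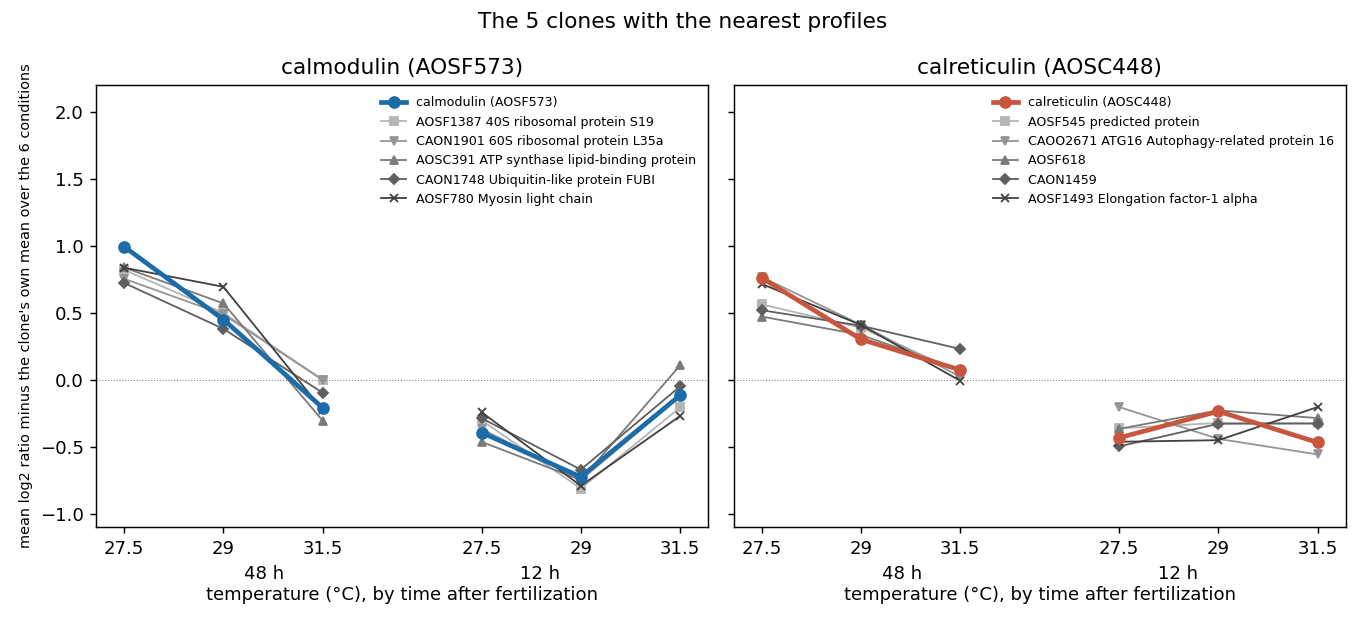
Mean log2 ratio minus the clone's own mean over the 6 conditions (vertical axis) by temperature (°C) and time, for calmodulin with its 5 nearest clones (left) and calreticulin with its 5 nearest clones (right). Coloured lines are the members and grey lines their neighbours. The neighbours of calmodulin share its low point at 29°C and 12 h, while the low points of calreticulin's neighbours fall at 27.5 or 31.5°C and 12 h.

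A further 4 clones were grouped here under calcium handling. Their annotations name severin, a myosin light chain, calumenin and a sodium/calcium exchanger, and the grouping itself is not the study's. This list and the next ones were drawn from clones that the study had named as changed on these samples. Their counts are therefore not independent evidence of a direction, and a high share of called clones is built in. At 48 hours 3 of the 4 were lower at 31.5°C than at 27.5°C and 0 were higher (median -0.73, against -0.01 over all tested clones, of which 161 were lower and 95 higher). Severin, AOSF1307, an actin-severing protein switched on by calcium in Dictyostelium, averaged -0.30 ± 0.11 at 31.5°C and 1.02 ± 0.04 at 27.5°C, a difference of -1.33. Myosin light chain, AOSF780, a relative of calmodulin built on the same EF-hand fold, averaged -0.62 ± 0.08 at 31.5°C and 0.44 ± 0.03 at 27.5°C, a difference of -1.06. Calumenin, CAON1056, an EF-hand protein of the ER and secretory pathway, averaged -0.28 ± 0.07 at 31.5°C and 0.12 ± 0.05 at 27.5°C, a difference of -0.40 (SD, n = 3 technical arrays each). The sodium/calcium exchanger solute carrier family 24 member 6, AOSF493, which exports calcium from mitochondria in mammals, differed by 0.19, within its limit of 0.25. At 29°C 1 of the 4, severin, was lower (-0.65), and it lost this call without replicate 2 of 29°C.

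At 12 hours the exchanger was higher at both warmer temperatures, by 0.37 at 29°C and 0.41 at 31.5°C, and calumenin was lower at 31.5°C with a difference of -0.58, measured on 2 of the 3 arrays of 27.5°C. With time, severin and myosin light chain rose by 1.45 (SE 0.22, adjusted p = 0.000895) and 0.87 (SE 0.26, adjusted p = 0.0262) in limma over RNA samples, while 1 clone of the list was called with scaled arrays. Calmodulin-binding motors, 2 myosin-VIIa clones and 1 myosin IXA clone whose proteins carry calmodulin as a light chain in other animals, form a further list. All 3 were lower at 31.5°C than at 27.5°C at 12 hours, as were 102 of the 1099 tested clones, with differences of -0.43 for AOSF969, -0.61 for CAON1295 and -0.80 for AOSF1357. Of the 3, 1 stayed past its limit without replicate 3 of 27.5°C or replicate 1 of 31.5°C. At 48 hours AOSF969 was higher by 0.65, as were 95 of all tested clones, and the other clones, at 0.56 and 0.17, were within their limits, although 2 of the 3 were called without replicate 1 or 3 of 27.5°C at 12 hours, through the pooled spread. At 29°C and in the test of time 0 of the 3 were called on all arrays, with 2 called at 12 hours and 1 with time once replicate 1 of 27.5°C at 12 hours was left out.

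ER entry and folding clones, the neighbours of calreticulin by place in the cell, were lower at 31.5°C than at 27.5°C after 48 hours in 7 of 7 cases (median -0.46). Without replicate 3 of 27.5°C or replicate 2 of 31.5°C the count was 5 of 7. Over all tested clones 161 of 1099 (14.6%) were lower. These shares are not comparable, because every clone of the list had been named as changed by the study. The list holds the 3 subunits of the Sec61 channel that leads proteins into the ER, with -0.64 for Sec61 alpha, -0.56 for Sec61 beta and -0.50 for Sec61 gamma, and the beta subunit of the translocon-associated protein complex, with -0.46. The other three were calumenin, protein O-fucosyltransferase 1, which modifies EGF repeats (-0.39), and sulfhydryl oxidase, which forms disulfide bonds (-0.26). At 29°C 1 of the 7, Sec61 gamma, was lower (-0.34), against 57 of 1099, a call lost without replicate 1 of 29°C or replicate 2 of 27.5°C. At 12 hours 3 were lower at 29°C, against 122 of 1099, with 0 called once replicate 3 of 27.5°C was left out and 1 for replicate 3 of 29°C, and at 31.5°C 1 was higher (sulfhydryl oxidase, 0.33) and 1 lower (calumenin). With time 3 of 7 were higher at 48 hours and 1 was lower in limma, against 228 higher and 189 lower of 1099, with Sec61 gamma at 1.36 (SE 0.19, adjusted p = 0.000597).

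**Figure D5:**
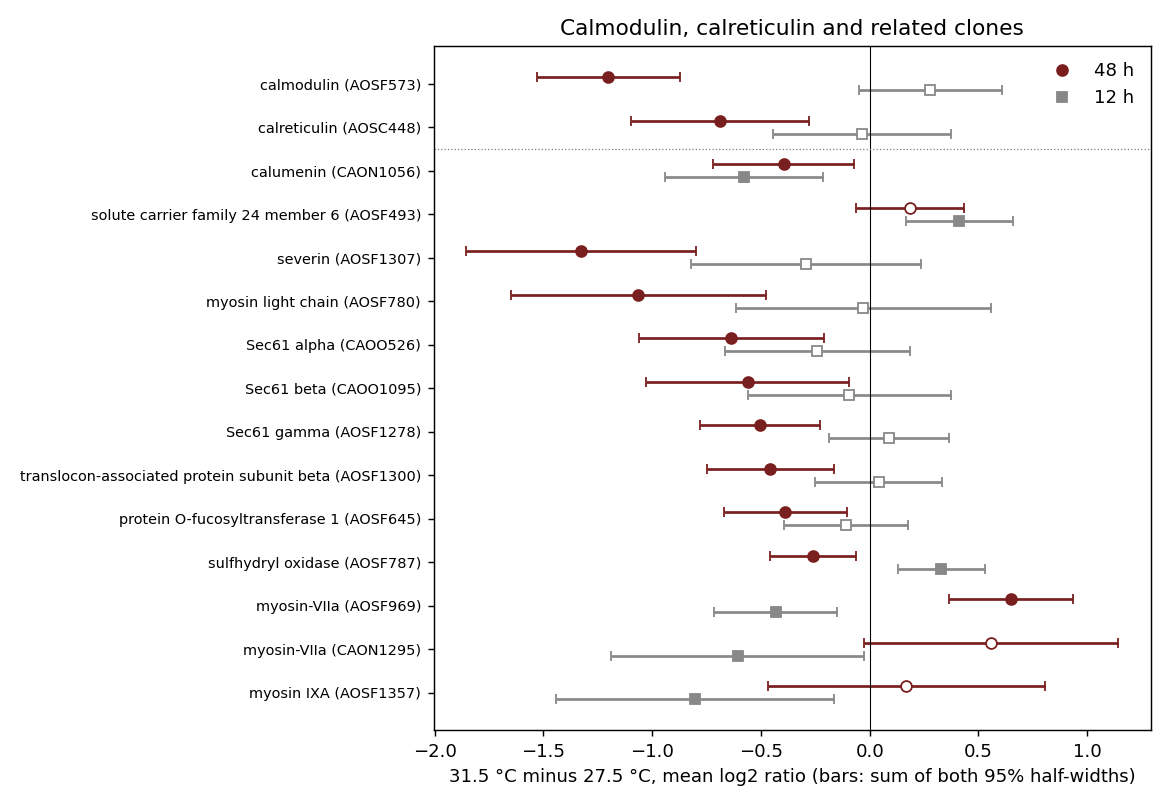
Difference in mean log2 ratio between 31.5 and 27.5°C (horizontal axis) for calmodulin and calreticulin (above the dotted line) and for the calcium handling, ER and motor clones (below it), at 48 h (red circles) and 12 h (grey squares). Error bars show each clone's limit, filled symbols passed it and open symbols did not. All 7 ER clones lie below 0 at 48 h, between -0.64 and -0.26. The clones below the dotted line were taken from those that the study named as changed.

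The study placed calreticulin in its apoptosis category and calmodulin in its category of cell proliferation, growth and development. Of the 5 other apoptosis clones tested, 3 were lower and 1 was higher at 31.5°C than at 27.5°C after 48 hours, against 161 lower and 95 higher of 1099, and 3 were lower at 29°C, against 57 of 1099, where 1 was called without replicate 1 or 3 of 29°C or replicate 2 or 3 of 27.5°C. Proapoptotic caspase adaptor protein, AOSF761, differed by -0.73 at 31.5°C and -0.46 at 29°C, and autophagy-related protein 16 by -0.74 and -0.36, so that both were lower at both temperatures, as calreticulin was. Activating transcription factor 5, CAON612, a stress-responsive regulator, was higher by 0.63 at 31.5°C. With time 2 of the 5 were higher, against 228 of 1099. Of the 16 other proliferation clones tested, 3 were higher and 4 lower at 31.5°C after 48 hours, against the same 95 and 161 of 1099. Among them GTP-binding nuclear protein ran-1, AOSF912, which drives transport through nuclear pores, differed by -0.94 at 31.5°C and -0.46 at 29°C. With time 2 of the 16 were higher and 9 lower, against 228 and 189 of 1099, ran-1 among the lower ones with -1.51 in limma (SE 0.19, adjusted p = 0.000377), whereas calmodulin was higher. The translocon-associated protein subunit beta, AOSF1300, is on this list and on the ER list. Its changes (-0.46 at 31.5°C after 48 hours and 0.85 with time) are therefore counted in both.

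Over the whole series, arrays of 27.5°C and 12 hours had 1616 to 2067 of 4320 spots above 0 in both channels, and those of the other conditions 2583 to 3365. The 3 arrays of 27.5°C and 12 hours lacked 241, 79 and 84 clones of the table, and every other array at most 26. Replicate 1 of 31.5°C at 12 hours correlated with its companions at r = 0.547 and 0.569, while these correlated at 0.894. Its calmodulin value was the highest of the 3 and its calreticulin value the lowest, and calmodulin's difference between 31.5 and 29°C kept its call without it.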

How the data were processed

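Each of the 6 conditions was 1 RNA isolation on 3 technical arrays, grouped by the temperature and time in the sample titles; source names give slightly different temperatures. For the deposited spot intensities, TIGR Spotfinder 2.2.4 had been used by the authors to integrate spots and subtract background. The series table, as deposited, holds log2 ratios (Cy5/Cy3) for clones, normalized by the authors in TIGR MIDAS by LOWESS within print tips; how duplicate spots were combined is not given in the sources used here. Against the quantiles of spot log2 ratios after print-tip loess in limma, those of the table had slopes of 0.876 to 1.04, so its scale was taken as log2. Spots carry no clone identifiers, so every clone value comes from the table, without further normalization.

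Tests used 1099 clones with at least 2 arrays in every condition. A linear model per clone gave 1 residual spread on 12 degrees of freedom, from which each mean received its 95% interval. Non-overlap of intervals is the study's criterion, but the study used credible intervals from BAGEL, not these confidence intervals. It compares RNA samples, without differences between cultures. In limma 3.58.1 (R 4.3.3), time and temperature were tested over the 6 condition means, and the difference between time points in a temperature change over arrays, with Benjamini-Hochberg adjustment over all tested clones at 0.05. Scripts were tested on simulated data. The depth of spotted arrays is given by their number alone. Named clones are the 2 members, the members of the calcium handling, calmodulin-binding motor, ER entry and folding, apoptosis and proliferation lists, and the 5 nearest profiles of each member. Members and lists were chosen with earlier results of these data known. Deposited sequences were not used here. Alternatives were median centring, scaling to 1 median absolute deviation, other filters and spreads, linear ratios, a replicate block, and leaving out arrays or RNA samples. Over all clones, same-numbered arrays of different conditions deviated with a median r of 0.01, against 0.0036 for arrays of different numbers. For calreticulin, however, replicate 1 lay below replicate 2 in every condition. Figures were drawn in Python 3.11.15 with matplotlib 3.10.9.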

Additional observations from a re-analysis of the deposited data

Results flagged for a closer look

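The change of calmodulin (AOSF573) between 31.5 and 27.5°C was -1.20 at 48 hours and 0.28 at 12 hours, and that of calreticulin (AOSC448) was -0.69 at 48 hours and -0.03 at 12 hours. The changes at 48 hours differed from those at 12 hours by -1.48 for calmodulin (95% interval -1.85 to -1.12, limma adjusted p = 2.45e-05) and by -0.65 for calreticulin (-1.07 to -0.24, limma adjusted p = 0.0254), and a test of this difference is why they are given here. All 3 arrays of 31.5°C lay below all 3 of 27.5°C at 48 hours for both clones, and at 12 hours they lay above them for calmodulin and overlapped them for calreticulin. In either direction, the arrays of these temperatures lay apart for 632 of 918 clones at 48 hours and for 217 at 12 hours. The error of these tests is that of technical arrays of 1 RNA sample per condition. The study had listed both clones as changed after 48 hours on these samples, so the tests are not independent evidence. For 29 against 27.5°C, calreticulin's changes differed by -0.66, about as much as at 31.5°C (95% interval -1.07 to -0.24, limma adjusted p = 0.0836).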

How the results depend on the processing

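Centring each array on its median changed no call of the 2 clones, and in the fits over RNA samples neither other filter on arrays nor the median of arrays did. With 1 array left out, 476 values stayed called or uncalled, 24 lost a call, 2 gained one and 2 changed sign. Scaling the arrays to 1 median absolute deviation gave, for calmodulin, -0.31 for 29 against 27.5°C at 12 hours, -0.085 for 31.5 against 27.5°C (a change of sign) and 0.23 for 31.5 against 29°C, all within the limit, and 0.39 for 48 against 12 hours over the temperatures (limma adjusted p = 0.260). For calreticulin it gave -0.40 for 31.5 against 29°C at 12 hours, now past the limit, 0.25 and 0.36 for 48 against 12 hours at 29 and 31.5°C, within it, 0.47 over the temperatures (limma adjusted p = 0.0676), and -0.46 for the change at 31.5°C at 48 minus 12 hours (limma adjusted p = 0.0687). The calmodulin difference of -0.33 between 29 and 27.5°C at 12 hours lost its call with a replicate block, which changed no other call, with a spread taken from only the conditions compared, in limma over arrays (adjusted p = 0.0735) and on linear ratios (-0.0703). With that same spread, the differences of -0.54 for calmodulin and -0.46 for calreticulin between 29 and 27.5°C at 48 hours were within the limit, and calreticulin also missed the threshold in limma over arrays (adjusted p = 0.0781). Among the lists, centring moved the calls at 29°C and 12 hours to 3 of the calcium handling clones, against 1, and to 5 of the ER clones, against 3. Scaling moved those of the proliferation clones to 13 at 31.5°C and 48 hours, against 7. Over all clones, same-numbered arrays deviated with a median r of 0.01 (9 of 45 pairs over 0.1), against 0.0036 for different numbers (13 of 90 pairs). For calreticulin, replicate 1 lay below replicate 2 in every condition, and the replicate block lowered its limit from 0.41 to 0.32. Whether the numbers pair the arrays is thus not settled for this clone.

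Leaving out RNA samples, the difference of 48 against 12 hours was 0.54 for both clones without 27.5°C at either time and 0.65 for calmodulin without 29°C at either time, none of them called (limma adjusted p 0.126 to 0.293). Without 31.5°C at either time it was 1.28 for calmodulin and 0.87 for calreticulin. Over both times, 31.5 against 27.5°C gave -1.15 for calmodulin without 31.5°C at 12 hours (limma adjusted p = 0.000963) and 0.23 without 31.5°C at 48 hours, and 29 against 27.5°C gave 0.20 and 0.035 for calreticulin without 27.5°C and without 29°C at 48 hours. Without the 2 arrays of 27.5°C at 12 hours from another user of the image-analysis program (chosen after seeing the data), calmodulin gave -0.38 for 29 against 27.5°C at 12 hours and 0.81 for 48 against 12 hours (limma adjusted p = 0.0566), and calreticulin 0.11 for 31.5 against 27.5°C at 12 hours and -0.80 for the change at 29°C at 48 minus 12 hours (limma adjusted p = 0.0237).

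With 1 array left out calmodulin ranged over -0.41 to -0.26 for 29 against 27.5°C and 0.20 to 0.33 for 31.5 against 27.5°C at 12 hours, and the change at 31.5°C was called without replicate 1 of 29°C at 48 hours. For 48 against 12 hours it ranged over 0.79 to 0.87 (limma adjusted p 0.0193 to 0.0628), lost without replicate 2 of 27.5°C at 12 hours or replicate 1 of 27.5 or 29°C at 48 hours. Calreticulin ranged over -0.11 to 0.10 for 31.5 against 27.5°C at 12 hours, -0.53 to -0.32 for 29 against 27.5°C at 48 hours, -0.79 to -0.52 for the change at 29°C at 48 minus 12 hours (gained without replicate 2 of 27.5°C at 12 hours, limma adjusted p = 0.0248) and -0.78 to -0.57 for that at 31.5°C. The causes were not tested. The fall of both clones at 31.5°C after 48 hours and of calmodulin at 31.5 against 29°C kept their calls under every alternative run. The number of arrays limits precision.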
